A study of Mus musculus with 12 samples.

Results

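The 9 genes described here encode the oxygen-sensing machinery of the mouse cell: the HIF alpha subunits Hif1a, Epas1 and Hif3a, their shared beta subunit Arnt, the prolyl hydroxylases Egln1, Egln2 and Egln3, the ubiquitin ligase subunit Vhl and the asparagine hydroxylase Hif1an. They were chosen by symbol, and each symbol matched 1 of the 32285 genes counted. In GRCm38 the genes lie, introns included, as follows: Hif1a at chr12:73901375-73947530, Epas1 at chr17:86753700-86833410, Hif3a at chr7:17031507-17062427, Arnt at chr3:95434388-95497240, Egln1 at chr8:124908587-124949324, Egln2 at chr7:27158658-27166802, Egln3 at chr12:54178981-54203860, Vhl at chr6:113623959-113631633 and Hif1an at chr19:44562850-44576274. While oxygen is ample, the EGLN enzymes hydroxylate the alpha subunits on prolines, VHL binds the hydroxylated form and it is degraded, and Hif1an blocks the binding of coactivators by hydroxylating an asparagine. When oxygen falls the alpha subunits persist, pair with Arnt and activate transcription of genes for glycolysis, vessel growth and erythropoiesis. Egln1 and Egln3 are themselves known targets of this factor. Control of the alpha subunits is thus mainly of the protein, and the values below are of transcripts alone.

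The livers of 12 neonatal C57BL6/J pups were dissociated and read by droplet single-cell RNA sequencing with 1 library per mouse. In the anemic group (phlebotomy-induced anemia, 6 mice), 20 µL of blood per g body weight was drawn from the facial vein 5 times between postnatal days 2 and 10, which was to bring the hematocrit to 20 to 24%. The control group (6 mice) had daily needle sticks with no blood drawn, and all livers were taken 24 h after the last draw according to the methods, while a drawing of the design places the liver analysis at postnatal day 10. The labels name no modified gene in either group, and both sexes were used. The labels give no sex per mouse, and Y-linked expression was above 50 CPM in 2 of 6 control and 4 of 6 anemic mice, so sex and group partly coincide. The libraries held 46252146 to 74545930 unique molecular identifiers (UMIs, which mark captured transcripts, and whether intronic reads were counted is not given in the sources used here) and 14184 to 21186 cells, of which 199879 of 206146 (97.0%) fell into 15 classes named from marker genes. Cells called as doublets made up 11.3 to 16.9% of a library, a share set beforehand by the number of its cells and not measured. Of the distinct cell barcodes, 2.46% occurred in more than 1 library. Anemic mice 2 and 3 stood apart from the other 10. They held 897 and 1021 endothelial cells against 1957 to 2958 in the others, and 4967 and 2286 monocytes against 264 to 501. Below, the log2 changes of the called genes in whole classes are given with and without those mice. Differences of change between classes and results for lists of other genes are given with them only.

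Levels are given as CPM, the UMIs of a gene divided by all UMIs of the class in that mouse and scaled to a fixed total, and are compared between classes and mice but not between genes. In the erythroid class 9 erythroid markers, Hbb-bs and Hba-a1 included, summed to 366000 to 626000 CPM in control and 515000 to 669000 CPM in anemic mice. That share of the total lowers the CPM of every other gene there. Over the 12 mice, the UMIs of a gene summed to 759 for Hif3a, to between 7232 and 23633 for Hif1an, Vhl, Egln3 and Egln2, and to between 46516 and 85742 for Egln1, Arnt, Hif1a and Epas1.

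Promoter sequences are shown for 3 genes on which the results turn, Egln1 and Egln3, both called higher in hepatocytes and macrophages of anemic mice, and Hif3a, called higher in the class named stellate. Dimers of Arnt with an alpha subunit bind ACGTG or GCGTG, and capitals mark either motif on either strand. The bases are those before the RefSeq start of transcription (GRCm38.p6, minus strand, 5′ to 3′), and end sooner for Egln1, where another annotation places the start of the gene further upstream. The stretches lie at chr7:17062428-17062677 for Hif3a, chr8:124949325-124949504 for Egln1 and chr12:54203875-54204124 for Egln3.
Hif3a: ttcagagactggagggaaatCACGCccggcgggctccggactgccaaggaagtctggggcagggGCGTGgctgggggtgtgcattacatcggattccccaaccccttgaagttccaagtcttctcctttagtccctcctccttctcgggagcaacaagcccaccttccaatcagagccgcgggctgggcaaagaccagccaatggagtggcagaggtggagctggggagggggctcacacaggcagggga
Egln1: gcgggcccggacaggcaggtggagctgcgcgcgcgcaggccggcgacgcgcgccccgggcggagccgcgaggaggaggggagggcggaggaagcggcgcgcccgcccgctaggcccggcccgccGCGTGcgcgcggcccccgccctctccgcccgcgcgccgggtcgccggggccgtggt
Egln3: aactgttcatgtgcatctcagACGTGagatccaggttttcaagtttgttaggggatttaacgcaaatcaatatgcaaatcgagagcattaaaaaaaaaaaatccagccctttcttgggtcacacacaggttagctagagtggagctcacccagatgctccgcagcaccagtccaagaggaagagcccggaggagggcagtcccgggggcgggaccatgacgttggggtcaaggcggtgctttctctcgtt

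Hif3a held 2 GCGTG motifs and Egln3 1 ACGTG, 229 bases before the start. In the full 250 bases before its start Egln1 held 1 of each, the ACGTG lying in the bases not shown. Of 32851 mouse promoters of 250 bases in the same table, 16.6% held ACGTG, 28.2% GCGTG and 38.6% at least 1 of them, so either motif is common. Of the other members, Hif1a held 3 ACGTG matches, 2 of which are the 2 strands of 1 palindrome, Arnt held 1 GCGTG and Egln2 held matches before both of its starts. Vhl and Hif1an held none in these windows, and the table has no entry for Epas1.

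**Figure D1:**
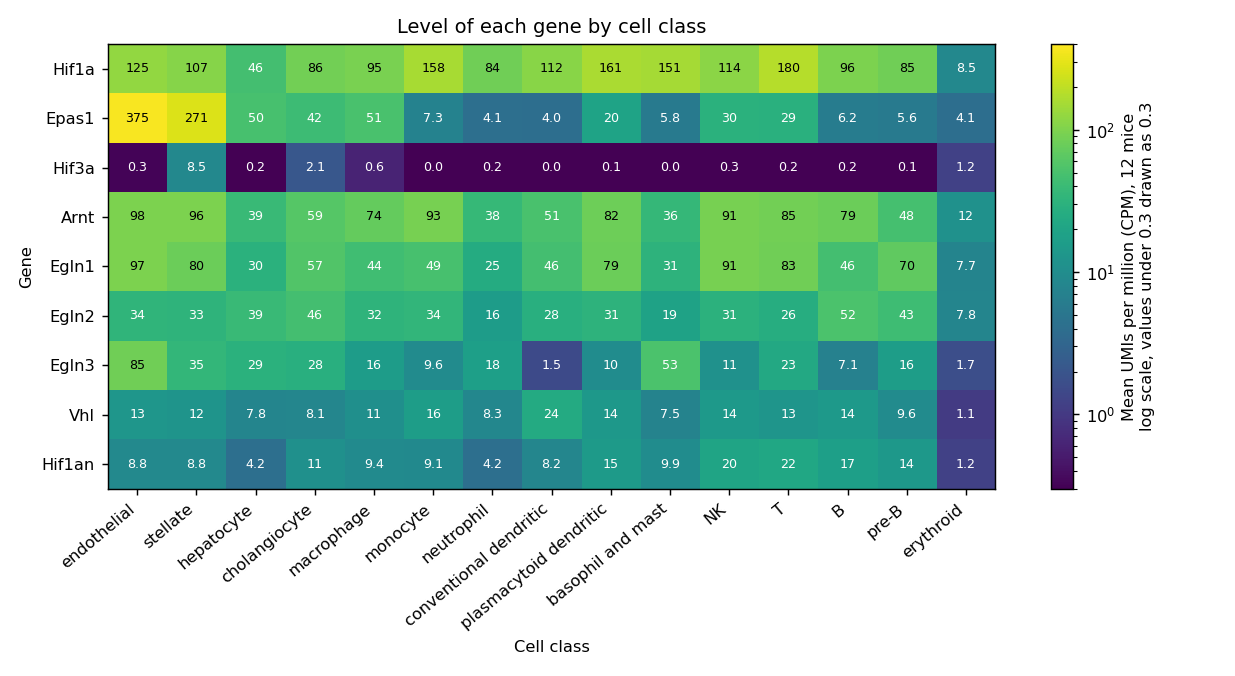
Mean level of the 9 genes (vertical) in 15 cell classes (horizontal), in CPM over 12 mice, with colour on a log scale. Epas1 was read mainly in endothelial (375 CPM) and stellate cells (271 CPM), Hif3a in the class named stellate (8.51 CPM) and Egln3 most in endothelial cells (85.0 CPM), while Hif1a spanned 46.4 to 180 CPM outside the erythroid class.

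The alpha subunits differed in where they were read. Hif1a, the broadly expressed subunit, was read in all 15 classes. It was highest in T cells at 180 ± 33.8 CPM (mean ± SD, n = 12 mice), and plasmacytoid dendritic cells (161 ± 18.8 CPM), monocytes (158 ± 38.1 CPM) and basophils and mast cells (151 ± 52.9 CPM) followed. None of these neighbours differed beyond its spread (exact sign-flip test within mice, adjusted over 126 neighbouring pairs of classes). Endothelial cells (125 ± 18.5 CPM), NK cells (114 ± 23.3 CPM), conventional dendritic cells (112 ± 19.5 CPM) and stellate cells (107 ± 12.2 CPM) came next. Hepatocytes, the parenchymal cells of the liver, ranked 14th at 46.4 ± 14.1 CPM, below neutrophils at 83.5 ± 25.2 CPM in 11 of 12 mice (exact adjusted p = 0.0189), and only erythroid cells were lower (8.51 ± 3.80 CPM, exact adjusted p = 0.00769, the smallest the test can give here).

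Epas1, which encodes HIF2A and was first described in endothelium, was far less evenly spread. Endothelial cells held 375 ± 37.9 CPM and the stellate class 271 ± 74.2 CPM. That class was named from 7 markers shared in part with other collagen-producing cells, and of its 2 clusters only 1 had Lrat and Colec11, which mark the vitamin A-storing cell, among its 10 leading genes. Endothelial cells were the higher in 12 of 12 mice, as were stellate cells over macrophages (51.3 ± 11.4 CPM), each with exact adjusted p = 0.00769. The order of the first 2 classes depended on how the stellate class was drawn. At the coarser clustering of resolution 1 the highest Epas1 level was that of stellate cells, and in control mice the cluster with Lrat (cluster 0) had a median of 435 CPM against 386 CPM in endothelial cells, while the other stellate cluster (48) had 85.3 CPM. In cluster 0, 66.4% of 2765 cells were called as doublets and endothelial markers gave the second highest score, and in cluster 48 63.3% were so called. In control mice 9 endothelial markers summed to 3360 to 5200 CPM in the stellate class, against 11500 to 12300 CPM in endothelial cells. The stellate level is thus not read as that of 1 cell type. Most macrophage Epas1, 5011 of 6565 UMIs, came from cluster 37, at 245 CPM, in which 90.6% of 1778 cells were called as doublets and endothelial markers gave the second highest score. The other 7 macrophage clusters held 9.30 to 24.1 CPM. Hepatocytes (49.8 ± 7.90 CPM) did not differ from macrophages beyond their spread, nor did cholangiocytes (41.8 ± 12.3 CPM) from hepatocytes. The class named cholangiocyte was 1 cluster, and 74.3% of its 666 cells were called as doublets. Its 10 leading genes held Ppy, Pyy and Gcg as well as Spp1 and Pkhd1. NK cells held 29.7 ± 10.8 CPM, T cells 28.8 ± 5.18 CPM and plasmacytoid dendritic cells 19.7 ± 10.6 CPM, and every other class 4.01 to 7.35 CPM. Of the 1473 NK UMIs of Epas1, 766 came from cluster 57, at 266 CPM, with 99.1% of its 320 cells called as doublets, and the other 5 NK clusters held 9.77 to 16.9 CPM. Of the 224 in plasmacytoid dendritic cells 189 came from cluster 60, at 242 CPM, with 98.9% of its 95 cells called as doublets and endothelial markers second in score, and the other cluster held 3.29 CPM. The part of the doublet calls in these levels was not tested. An Epas1 UMI was present in 68.8% of endothelial cells, at a median of 3932.5 UMIs per cell, against 1.90% of conventional dendritic cells at a median of 5339. Per mouse, 64.8 ± 5.32% of all Epas1 UMIs came from endothelial cells. The whole-library Epas1 level was 44.3 and 48.7 CPM in anemic mice 2 and 3, 120 to 138 CPM in the other anemic mice and 127 to 162 CPM in control mice. Endothelial cells were 5.03 and 4.82% of the cells of those 2 mice against 11.2 to 17.9% in the others, and held Epas1 at 281 and 336 CPM against 363 to 410 CPM.

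Hif3a, whose products include inhibitory forms without the transactivation domain, was low in the other named classes. The class named stellate held 377 of its 759 UMIs (8.51 ± 4.73 CPM), and 5.60% of its cells had a Hif3a UMI against 0.0264% of conventional dendritic cells at a similar depth. The cluster with Lrat and Colec11 held 95 of the 377 UMIs (3.17 CPM) and cluster 48, led by Mfap4, Dpt, Clec3b and other matrix genes of collagen-producing cells, 282 (14.4 CPM), so most of the class's Hif3a was not read in the cluster with the markers of vitamin A-storing cells. At resolution 1, where a cluster led by Mfap4, Acta2 and Dpt was left unnamed, the stellate level was 3.59 CPM. Cholangiocytes followed at 2.09 ± 1.96 CPM, from 11 UMIs, and were lower in 12 of 12 mice (exact adjusted p = 0.00769). Basophils and mast cells had 0 UMIs, and monocytes 2.

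Arnt, the constitutive partner, had a flatter profile. It was highest in endothelial (97.5 ± 11.2 CPM), stellate (96.1 ± 8.18 CPM), monocyte (92.6 ± 10.4 CPM) and NK cells (91.2 ± 17.0 CPM), and only 1 pair of neighbours in its order differed, the last. With called doublets left out, stellate cells came first. Hepatocytes were at 39.4 ± 12.3 CPM and erythroid cells at 11.5 ± 5.48 CPM.

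The 3 prolyl hydroxylases had 3 different orders. Egln1, the main oxygen sensor among them, was highest in endothelial (96.6 ± 14.7 CPM), NK (91.1 ± 11.3 CPM) and T cells (83.4 ± 11.2 CPM), and low in hepatocytes (29.5 ± 7.06 CPM) and neutrophils (25.0 ± 10.5 CPM). Egln2 varied least, from 51.7 ± 8.01 CPM in B cells to 16.2 ± 6.35 CPM in neutrophils outside the erythroid class (7.83 ± 3.50 CPM). Egln3 varied most, and endothelial cells held 85.0 ± 25.7 CPM and gave 53.8 ± 14.0% of its UMIs per mouse. Basophils and mast cells followed at 52.6 ± 35.9 CPM, from 111 UMIs with 0 to 121 CPM in single mice, and came first with called doublets left out, then stellate cells (34.9 ± 8.79 CPM), hepatocytes (29.3 ± 7.53 CPM) and cholangiocytes (28.2 ± 14.5 CPM). The lowest was 1.51 ± 1.03 CPM in conventional dendritic cells. In the basophil and mast class, neutrophil markers summed to 17700 to 53300 CPM in control and 2240 to 40400 CPM in anemic mice. Its own markers summed to 10200 to 15700 and 8060 to 29900 CPM, and 29.0% of its cells were called as doublets. The part of the neutrophil markers in its levels was not tested.

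Vhl, the substrate-binding subunit of the ligase, peaked in conventional dendritic cells at 24.5 ± 2.84 CPM, above monocytes (16.3 ± 3.63 CPM) in 11 of 12 mice (exact adjusted p = 0.0112). That class was the lowest of all for Epas1 and for Egln3. Vhl lay between 7.47 and 14.3 CPM in the other 12 classes outside erythroid cells (1.05 ± 0.937 CPM). Hif1an was highest in lymphoid classes, at 21.6 ± 5.16 CPM in T cells, 19.9 ± 2.44 CPM in NK cells and 17.2 ± 2.88 CPM in B cells. It was 4.21 ± 1.08 CPM in hepatocytes, and these lay below their neighbours, conventional dendritic cells, in 11 of 12 mice (exact adjusted p = 0.0153).

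In all, 16 of the 126 neighbouring pairs differed, 3 each for Hif1a and Epas1, 2 each for Hif3a, Egln1 and Hif1an and 1 for each other member, so most steps in these orders were within the spread. The genes whose profile over the 15 classes was most like that of a member, among 13759 genes with at least 10 CPM in some class, were Rab2a for Hif1a (Pearson r = 0.975 of log2(mean CPM + 1)), Klhl3 for Epas1 (0.977), Adamtsl5 for Hif3a (0.97), Vps53 for Arnt (0.956), Klhl20 for Egln1 (0.946), Sgta for Egln2 (0.961), Xpc for Egln3 (0.85), Usp4 for Vhl (0.928) and Cnot6l for Hif1an (0.977). Next in likeness were Entr1 and Mia3, Susd4 and Tcf7l1, Col4a6 and Col5a1, Atp9b and Adam9, Slc35b3 and Ric8b, Ubqln1 and Wbp4, Ulk1 and Gm34921, Paf1 alone, and Pdpr and Smyd3, in the same order of members. The 15 points of a correlation come from the same libraries, and the erythroid class, low for most members, is 1 of them.

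The question of the design is which of these levels differed in anemic mice. UMIs were summed per mouse and class and compared by edgeR's quasi-likelihood test, with p-values adjusted over all genes tested in the class (Benjamini-Hochberg). The members passed the filter on low counts in 115 of 135 combinations of gene and class, and 12 of those 115 (10.4%) had an adjusted p under 0.05, against 7.02% of all 175223 tests of genes in classes. Of the 12, 9 were higher in anemic mice, where 3.23% of all tests were, and 3 were lower, where 3.79% were. Without the TMM scaling between libraries the split was 7 higher and 6 lower. The calls lay in hepatocytes (5 of 8 members tested, where 46.2% of all genes were called), endothelial cells (2 of 8, 17.8%), stellate cells (2 of 9, 15.9%), macrophages (2 of 9, 4.33%) and monocytes (1 of 8, 0.706%). The monocyte call, Egln3, met the filter on low counts only through the anemic mice. An unadjusted p under 0.05 was found in 34 of the 115. The share of all genes at that limit is not given, so nothing is read from this count or from those of single members below.

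**Figure D2:**
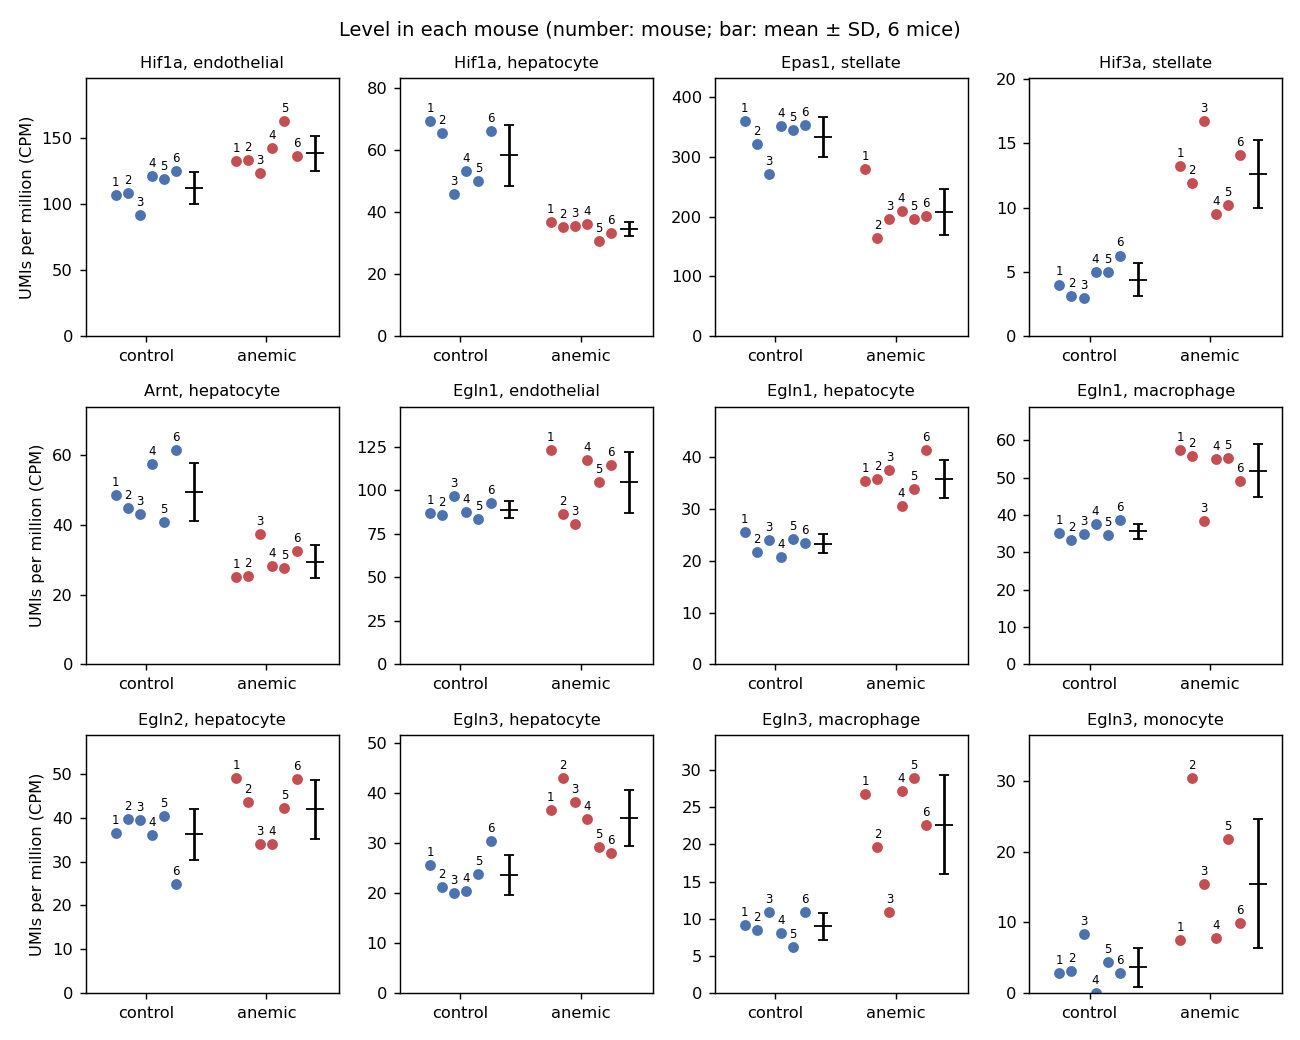
Level (CPM, from 0) of each called gene in each control (blue) and anemic (red) mouse, numbered by mouse, with mean ± SD of 6 mice beside the points. The groups did not overlap for Hif1a, Arnt and Egln1 in hepatocytes and Hif3a in stellate cells, and anemic mouse 3 did not pass the control range in the direction of the difference in 5 of the 12 panels.

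In these pairs Hif1a went opposite ways in 2 classes. In endothelial cells the control mice ranged from 91.7 to 125 CPM (median 114) and the anemic mice from 124 to 163 CPM (median 135). Hif1a rose there by a log2 change of 0.414 ± 0.0843 (SE; 1.33-fold, edgeR adjusted p = 0.00417), with anemic mouse 3 alone not above the highest control mouse. In hepatocytes the control mice ranged from 45.8 to 69.1 CPM (median 59.4) and the anemic mice from 30.7 to 36.8 CPM (median 35.3). The groups did not overlap, and Hif1a fell by 0.637 ± 0.112 on the log2 scale (edgeR adjusted p = 0.000246).

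Hif1a did not pass the threshold in the other 13 classes. Its log2 change was above 0 in 14 of 15 classes, hepatocytes being the exception, or in all but hepatocytes and erythroid cells (-0.0740) without TMM scaling, and its unadjusted p was under 0.05 in 10. The share of all genes with such agreement of sign over classes of the same libraries is not given, so nothing is read from these counts. The change in endothelial cells exceeded that in hepatocytes by 1.03 on the log2 scale, and the hepatocyte change minus that in macrophages, monocytes and stellate cells was -0.903, -1.06 and -0.886. Each of these differences of change had an exact permutation p = 0.00216, the smallest that 6 against 6 mice allow, and adjusted p = 0.0297. The adjustment was over 591 pairs of classes, for members called in at least 1 class. Without anemic mice 2 and 3 the log2 change of Hif1a was 0.447 in endothelial cells and -0.549 in hepatocytes, both past the threshold.

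The make-up of the hepatocyte class moved with this difference. With cells of at most 10% mitochondrial UMIs the log2 change was -0.233 (edgeR adjusted p = 0.304). Such cells numbered 5318 of 7250 control hepatocytes and 8749 of 10357 anemic ones. Of the 4 hepatocyte clusters, cluster 22, with Cyp2b9, Apob and Cps1 among its leading genes and a median mitochondrial share of 16.4%, made up 28.6% of control hepatocytes (median over mice) and 13% of anemic ones, and cluster 25, led by Gnmt, Uox and Cth, 23.5% and 39.2%. In control mice the median Hif1a level was 87.9 CPM in cluster 22 and 21.7 to 31.2 CPM in the other 3. Fitted cluster by cluster, which was added after the data had been seen, Hif1a passed the threshold in none of the 4, with log2 changes of -0.388 in cluster 8, -0.157 in cluster 22, -0.0982 in cluster 10 and 0.0121 in cluster 25. Calls over all genes were also fewer in these fits than the 46.2% of the class, with 351 of 5819 genes in cluster 8, 464 of 9572 in cluster 22, 495 of 6804 in cluster 10 and 342 of 7678 in cluster 25, so passing in none is near the background and nothing is read from it for Hif1a or for the genes below.

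Epas1 fell in stellate cells and passed the threshold nowhere else among 14 classes. The control mice held 272 to 359 CPM (median 348) and the anemic mice 163 to 280 CPM (median 199), with 5 of 6 anemic mice below every control mouse and anemic mouse 1 within the control range. The log2 change was -0.591 ± 0.110 (edgeR adjusted p = 0.00192), and -0.507 without anemic mice 2 and 3. In endothelial cells, where most Epas1 was read, control mice held 363 to 410 CPM and anemic mice 281 to 408 CPM, with the 2 lowest in anemic mice 2 (281 CPM) and 3 (336 CPM), a log2 change of 0.0127. The change in endothelial cells exceeded that in stellate cells by 0.613 (exact permutation p = 0.00216, adjusted p = 0.0297).

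The stellate class was made of 2 clusters, and the cluster that held most cells was not the same in the 2 groups. Cluster 0, with Angptl6, Colec11 and Lrat among its 10 leading genes, made up 60.0% of control stellate cells (median over mice) and 28.7% of anemic ones, and cluster 48, with Mfap4, Dpt, Col1a1 and Lum but neither Lrat nor Colec11, the rest. Epas1 had a median of 435 CPM in cluster 0 of control mice and 85.3 CPM in cluster 48. Within cluster 0 its log2 change was -0.200 (edgeR adjusted p = 0.304) and within cluster 48 0.0977 (adjusted p = 0.920). At a coarser clustering, where the class was drawn differently, it was -0.193 (adjusted p = 0.296). Without cells called as doublets, which left 11 mice because all 134 stellate cells of anemic mouse 3 were so called, it was -1.30 (adjusted p = 0.0019).

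Hif3a moved the other way in the same class. It was 2.99 to 6.27 CPM in control mice (median 4.49) and 9.46 to 16.7 CPM in anemic mice (median 12.6), and the groups did not overlap. Its log2 change was 1.51 ± 0.199 (2.85-fold, edgeR adjusted p = 0.000183), from 137 UMIs in control and 240 in anemic mice, and 1.44 without anemic mice 2 and 3. Of all genes tested in stellate cells, 8.37% were called higher and in 6.94% the groups did not overlap, against 1 of the 9 members for each. Hif3a was higher in cluster 48, the larger cluster in anemic mice, than in cluster 0 (control medians 9.41 and 2.32 CPM). It rose also within cluster 0, from a median of 2.32 to 5.74 CPM (log2 change 1.22, edgeR adjusted p = 0.016), and was 9.41 and 17.6 CPM in cluster 48 (0.838, adjusted p = 0.224). The macrophage change of Hif3a minus the stellate change was -1.41 (exact permutation p = 0.00216, adjusted p = 0.0297).

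Markers of other cells moved with these stellate values. The summed level of 9 endothelial markers was 3360 to 5200 CPM in control and 2320 to 4350 CPM in anemic stellate cells, 0 of 9 with a higher mean in anemic mice, and that of 9 erythroid markers 753 to 2700 CPM and 2700 to 10700 CPM, 7 of 9 higher. No marker was at 0, and doublet calls covered 47.8 to 82.9% of control and 50.2 to 100% of anemic stellate cells. The part of these markers in the differences of Epas1 and Hif3a was not tested. That of the doublet calls was looked at only by leaving out the cells so called, as given above for Epas1.

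Arnt, which pairs with every alpha subunit, fell in hepatocytes and passed the threshold in no other class. Control mice held 40.8 to 61.4 CPM (median 46.7) and anemic mice 25.1 to 37.5 CPM (median 28.0), with no overlap. The log2 change was -0.644 ± 0.135 (edgeR adjusted p = 0.00102) and -0.582 without anemic mice 2 and 3. The endothelial change exceeded it by 0.784, and the hepatocyte change minus that in macrophages, monocytes and stellate cells was -0.852, -0.717 and -0.797 (each exact permutation p = 0.00216, adjusted p = 0.0297). As with Hif1a, cluster 22 held the higher level, a control median of 69.6 CPM against 18.6 to 28.4 CPM in the other 3 clusters, and no hepatocyte cluster alone passed the threshold, with log2 changes from -0.674 in cluster 10 to 0.221 in cluster 8.

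The prolyl hydroxylases were tested in 15 classes (Egln1) and in 14 each (Egln2 and Egln3). They gave 7 of the 12 calls, all higher in anemic mice, where 3.23% of all tests of genes in classes were. Among the 7 are Egln3 in monocytes and Egln2 in hepatocytes, both lost in some alternative fits. In hepatocytes, where 20.8% of all genes were called higher, all 3 were called, Egln1 the most clearly. Its control mice ranged from 20.7 to 25.6 CPM (median 23.8) and its anemic mice from 30.6 to 41.4 CPM (median 35.6). The groups did not overlap, and Egln1 rose by 0.732 ± 0.0992 on the log2 scale (1.66-fold, edgeR adjusted p = 2.53e-05). Egln3 was 20.1 to 30.4 CPM in control mice (median 22.5) and 28.0 to 42.9 CPM in anemic mice (median 35.6), and all anemic mice but 5 and 6 exceeded the highest control mouse. It rose by 0.650 ± 0.127 (1.57-fold, edgeR adjusted p = 0.000568). Egln2 was 24.9 to 40.5 CPM (median 38.1) and 34.0 to 49.1 CPM (median 43.0), a log2 change of 0.348 ± 0.129 (edgeR adjusted p = 0.0362). The Egln2 call was lost under 6 alternatives, among them a covariate for Y-linked expression above 1 CPM (0.276, adjusted p = 0.109) or above 50 CPM (0.290, 0.108), and without any of 5 single mice, control mice 1 and 6 and anemic mice 1, 5 and 6. In the 4 hepatocyte clusters fitted alone Egln2 passed in none, with log2 changes of 0.244 in cluster 8, 0.127 in cluster 22, -0.117 in cluster 25 and -0.365 in cluster 10. Cluster 25, which made up more of the anemic than of the control hepatocytes, held Egln2 at 70.4 CPM and the other 3 at 25.5 to 33.6 CPM, and the part of this make-up in the call was not tested.

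Of all genes tested in hepatocytes, 20.8% were called higher and 25.4% lower, and in 24.4% the groups did not overlap. Of the 8 members tested 3 were higher and 2 lower, and in 3 the groups did not overlap. Without anemic mice 2 and 3 the log2 changes were 0.820 for Egln1, 0.652 for Egln3 and 0.493 for Egln2, all past the threshold. Within single clusters, Egln1 passed in 1 of 4, cluster 25, where it rose from a control median of 33.9 to an anemic median of 59.1 CPM (log2 change 0.73, edgeR adjusted p = 0.0223). In clusters 10, 22 and 8 its log2 changes were 0.484, 0.372 and 0.0305 (adjusted p = 0.205, 0.357 and 0.974). Cluster 25 also had the highest Egln1 level, 51.7 CPM against 21.7 to 23.8 CPM in the others, and its share of the class was 23.5% in control and 39.2% in anemic mice (medians). Egln3 had log2 changes of 0.290 to 0.897 in the 4 clusters and passed in none. The summed markers of other cells in the hepatocyte class differed between the groups: 9 erythroid markers were at 1130 to 6590 CPM in control and 6740 to 23200 CPM in anemic mice (9 of 9 with a higher mean), 9 endothelial markers at 175 to 262 and 79.1 to 172 CPM (0 of 9), 7 stellate markers at 104 to 128 and 28.4 to 73.6 CPM (1 of 7) and 8 monocyte markers, which include Fn1, at 1020 to 1290 and 504 to 642 CPM (6 of 8). None was at 0, and their part in the hepatocyte differences was not tested.

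Macrophages, largely the resident Kupffer cells of the sinusoid, had a rise of both Egln1 and Egln3. Egln1 was 33.3 to 38.7 CPM in control mice (median 35.0) and 38.5 to 57.4 CPM in anemic mice (median 55.2), a log2 change of 0.644 ± 0.0951 (1.56-fold, edgeR adjusted p = 0.00277). Egln3 was 6.19 to 10.9 CPM (median 8.78) and 10.9 to 28.9 CPM (median 24.7), a log2 change of 1.43 ± 0.199 (2.70-fold, edgeR adjusted p = 0.00179). For both genes 5 of 6 anemic mice exceeded the highest control mouse and anemic mouse 3 lay within the control range. Of all macrophage genes 2.11% were called higher, against 2 of the 9 members. Without anemic mice 2 and 3 the log2 changes were 0.659 and 1.62.

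Anemic mouse 2 held only 9 cells of cluster 3, the largest macrophage cluster, whose leading genes were Cd209f, Clec4f and Cd209g, and 50.5% of its macrophages were in cluster 4, led by Prg4, Serpinb2 and Alox15. Egln3 was nearly absent from cluster 3 in control mice, at 0.536 to 3.34 CPM (median 1.52), and 2.99 to 92.7 CPM in anemic mice (median 16.2), the highest from those 9 cells. Its log2 change in cluster 3 alone was 3.25 ± 0.371 (edgeR adjusted p = 5.35e-05), 3.19 without anemic mouse 2, and it rose also in cluster 5, led by Vsig4, Adamdec1 and C1qa (2.85, adjusted p = 0.0024). Most control Egln3 UMIs of the class, 500 of 616, came from cluster 37, led by Cxcl9, Cfap69 and Slc39a12, in which 90.6% of cells were called as doublets. There the medians were 45.6 and 67.6 CPM and the log2 change 0.594 (adjusted p = 0.116), which was 0.703 and past the threshold without anemic mouse 2 (adjusted p = 0.0477). Without doublet calls the log2 change of the whole class was 2.62 (adjusted p = 0.00097). Egln1 rose in cluster 3 as well (control and anemic medians 29.7 and 47.4 CPM, adjusted p = 0.0033), and in cluster 37 only without anemic mouse 2 (adjusted p = 0.0186, against 0.0659 with it). Its fits in the other macrophage clusters are not given. Over all alternative fits of Egln1 in this class, 26 kept the result and 9 were weaker. The 12 fits of the class with 1 mouse left out all passed (edgeR adjusted p at most 0.0112). The weaker ones thus lie among the other alternatives, single clusters included, and the total does not show a rise in every cluster.

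In the macrophage class 9 erythroid markers summed to 626 to 4400 CPM in control and 2470 to 11200 CPM in anemic mice (9 of 9 with a higher mean) and 9 endothelial markers to 1670 to 2090 and 1240 to 2140 CPM (1 of 9), with none at 0. The part of these markers in the rise was not tested.

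Monocytes gave 1 call, Egln3. The 6 control mice had 0 to 5 UMIs each, 0 to 8.42 CPM (median 3.02), and the anemic mice 7.50 to 30.4 CPM (median 12.7), 4 of 6 above every control mouse. Control mouse 4 had 0 of 651376 UMIs, which allows up to 4.61 CPM, and anemic mouse 2 had 628 UMIs of the gene from 4967 monocytes. The log2 change was 2.37 ± 0.507 (5.16-fold, edgeR adjusted p = 0.0412). Egln3 UMIs summed to 16 in control and 815 in anemic monocytes. The gene thus met the filter of 5 UMIs per mouse on average only through the anemic group, and the call is not read as support for a rise. The call was lost without any of 8 single mice (all 6 control mice and anemic mice 3 and 5), under the covariate for Y-linked expression above 1 CPM (2.06, adjusted p = 0.139), a limit that set control mouse 3 and anemic mouse 2 apart from the other mice with high Xist, and without anemic mice 2 and 3 (1.80, adjusted p = 0.0759). With the limit at 50 CPM it was 2.48 (adjusted p = 0.0393). Cluster 44 held a median over mice of 89.2% of control and 82.0% of anemic monocytes, and cluster 45 3.03% and 8.5%, reaching 61.6% in 1 anemic mouse, and 78.3% of its cells came from anemic mouse 2. Within cluster 44 the medians were 3.40 and 9.81 CPM (log2 change 1.53, adjusted p = 0.111), within cluster 33 the log2 change was 2.96 (adjusted p = 0.532), and cluster 45, with 77 control cells, was not fitted. Among monocytes 9 erythroid markers summed to 1040 to 6260 CPM in control and 5720 to 21100 CPM in anemic mice and 9 endothelial markers to 309 to 509 and 127 to 267 CPM, none at 0, and their part was not tested. Doublet calls covered 1.37 to 4.79% of the monocytes of a control mouse and 5.41 to 19.5% of those of an anemic mouse. The median UMIs per monocyte were 1831 to 2292 in control and 2674 to 3711 in anemic mice.

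In endothelial cells Egln1 rose from 83.2 to 96.5 CPM in control mice (median 87.1) to 80.7 to 123 CPM in anemic mice (median 110). The log2 change was 0.345 ± 0.0926 (1.27-fold, edgeR adjusted p = 0.0193), with 4 of 6 anemic mice above every control mouse and anemic mice 2 and 3 within or below the control range. Without those 2 mice it was 0.465 (adjusted p = 0.000409), and without TMM scaling 0.251 (adjusted p = 0.0757). Egln3, at 65.8 to 91.3 CPM in control and 57.4 to 145 CPM in anemic mice, had a log2 change of 0.502 ± 0.178 that missed the threshold (edgeR adjusted p = 0.0654). It passed without anemic mouse 2 (adjusted p = 0.0446), without anemic mouse 3 (0.0128) or without both (0.00274).

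Of all endothelial genes 7.62% were called higher, against 2 of 8 members. Here too the cluster that held most cells was not the same in the 2 groups. Cluster 34, with Ldlrad2, Clec4g and Dnase1l3 among its leading genes, made up 48.8% of control and 21.7% of anemic endothelial cells, and cluster 1, with Fgf23, Adam23 and Stc1, 21.0% and 43.2%. Hif1a rose within both, with log2 changes of 0.46 in cluster 1 (edgeR adjusted p = 0.0045) and 0.32 in cluster 34 (0.018). Egln1 rose within clusters 34 (0.47, adjusted p = 0.0047) and 39 (0.48, 0.0024), as did Egln3 (0.48, 0.026, and 0.52, 0.046). Each of the 3 genes passed in 2 of the 7 endothelial clusters, and Egln1 did not in cluster 1 (0.365, adjusted p = 0.0577), the largest in anemic mice. The share of all genes called in these cluster fits is not given, so nothing is read from the counts. The summed 9 erythroid markers in the class were 748 to 2330 CPM in control and 3200 to 7010 CPM in anemic mice (8 of 9 with a higher mean, none at 0). Hepatocyte markers were at 1790 to 3070 and 391 to 1960 CPM (1 of 9 higher), and B markers at 48.5 to 94.3 and 29.3 to 50.7 CPM (0 of 7). Median UMIs per cell were 3107 to 3844 in control and 4116 to 5336 in anemic mice. The part of these differences was not tested.

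**Figure D3:**
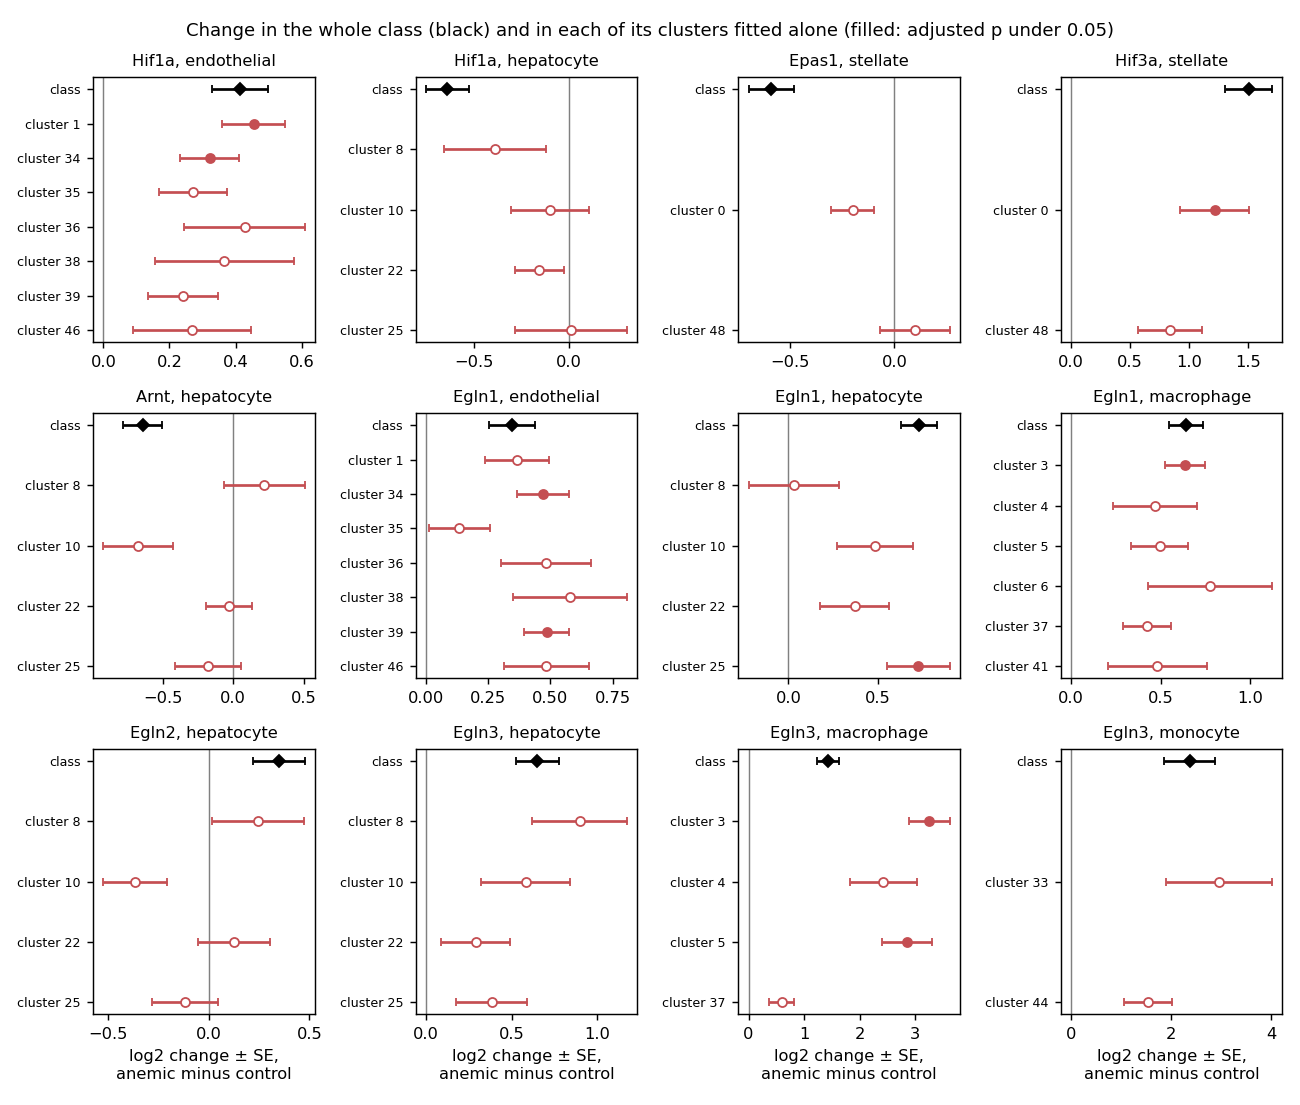
Log2 change (anemic minus control, ± SE) of the 12 called pairs in the whole class (black diamond) and in each of its clusters fitted alone (circles, filled where the adjusted p was under 0.05). Egln3 had log2 changes of 3.25 and 2.85 in macrophage clusters 3 and 5 and 1.43 over the class, and Hif1a and Arnt in hepatocytes passed in no cluster.

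The prolyl hydroxylases differed among classes in the size of their change. Egln1 had a log2 change above 0 in 15 of 15 classes (in all but cholangiocytes, at -0.0222, without TMM scaling), from 0.00892 in pre-B cells to 0.732 in hepatocytes, and Egln3 in 12 of 14. The classes come from the same libraries, and the share of all genes with such agreement of sign is not given. Nothing is read from these counts. For Egln1 the change in endothelial cells minus that in macrophages was -0.302, and stellate cells, where the log2 change was 0.123, lay below hepatocytes by 0.604 and below macrophages by 0.522. For Egln3 the endothelial change minus the macrophage change was -0.944, and the macrophage change exceeded that of stellate cells by 1.14. Each had exact permutation p = 0.00216 and adjusted p = 0.0297. The stellate change of Egln3, 0.330, did not pass the threshold, but in stellate cluster 0 alone Egln3 rose from a median of 38.7 to 68.7 CPM (0.847, edgeR adjusted p = 0.0029).

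**Figure D4:**
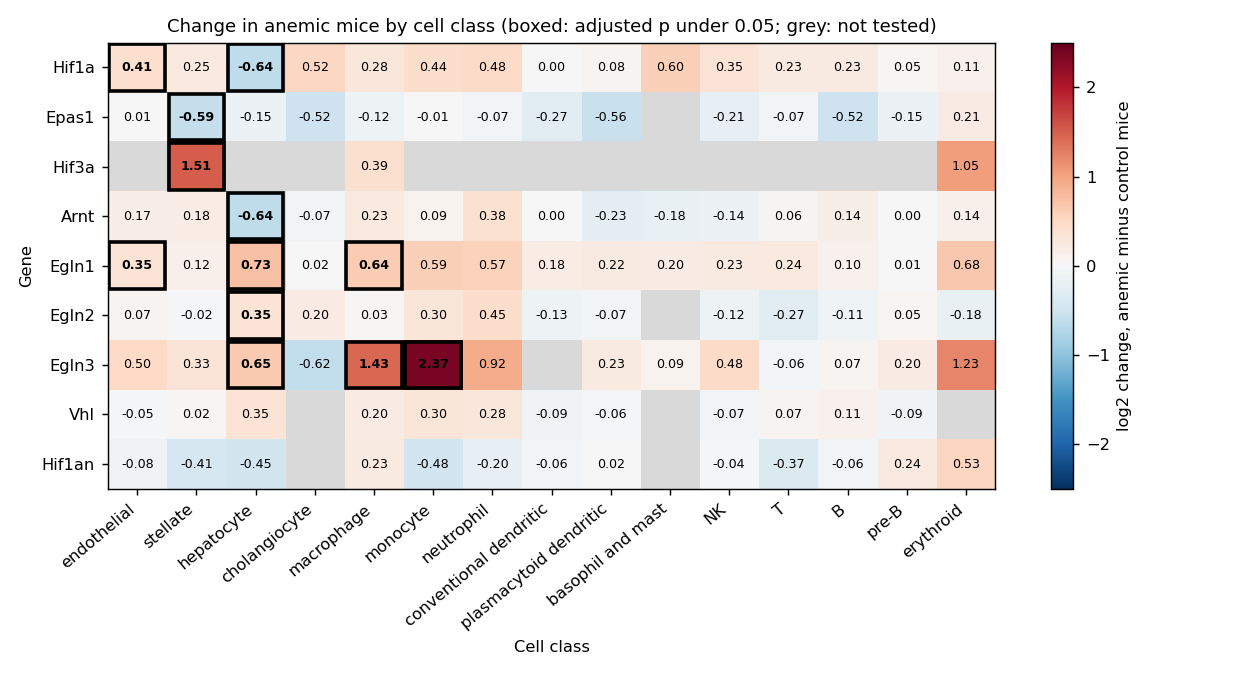
Log2 change (anemic minus control mice, edgeR) of the 9 genes in 15 cell classes, boxed where the adjusted p was under 0.05 and grey where the gene was too low to test. Hif1a was lower in hepatocytes (-0.637) and higher in endothelial cells (0.414), and the 7 boxed values of Egln1, Egln2 and Egln3 were all above 0. Of all tests of genes in classes, 3.23% were called higher.

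Vhl and Hif1an, which act downstream of and beside the prolyl hydroxylases, passed the threshold in no class. Vhl was tested in 12 classes with a smallest edgeR adjusted p of 0.131, in hepatocytes, where control mice held 5.04 to 8.03 CPM and anemic mice 7.03 to 13 CPM, and its unadjusted p was under 0.05 in none. Hif1an was tested in 13 classes with a smallest adjusted p of 0.0718, in stellate cells, at 8.45 to 12.0 CPM in control and 5.46 to 8.95 CPM in anemic mice (log2 change -0.413), and had 3 unadjusted p-values under 0.05. Without TMM scaling Hif1an was called lower in stellate cells and hepatocytes and Epas1 in hepatocytes. Over all hepatocytes Vhl had 278 UMIs and Hif1an 152.

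None of the 9 genes was called in lymphocytes, in dendritic, erythroid or cholangiocyte cells, in neutrophils or in basophils and mast cells. Of all genes tested there 0.0206% (cholangiocytes) to 2.01% (pre-B cells) were called, so a count of 0 is near the background. The smallest unadjusted p-values there belonged to log2 changes of 0.518 for Hif1a in cholangiocytes (unadjusted p = 0.00199), 0.682 for Egln1 in erythroid cells (0.00529) and 0.229 for Hif1a in B cells (0.0122), with edgeR adjusted p of 0.316, 0.254 and 0.165.

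**Figure D5:**
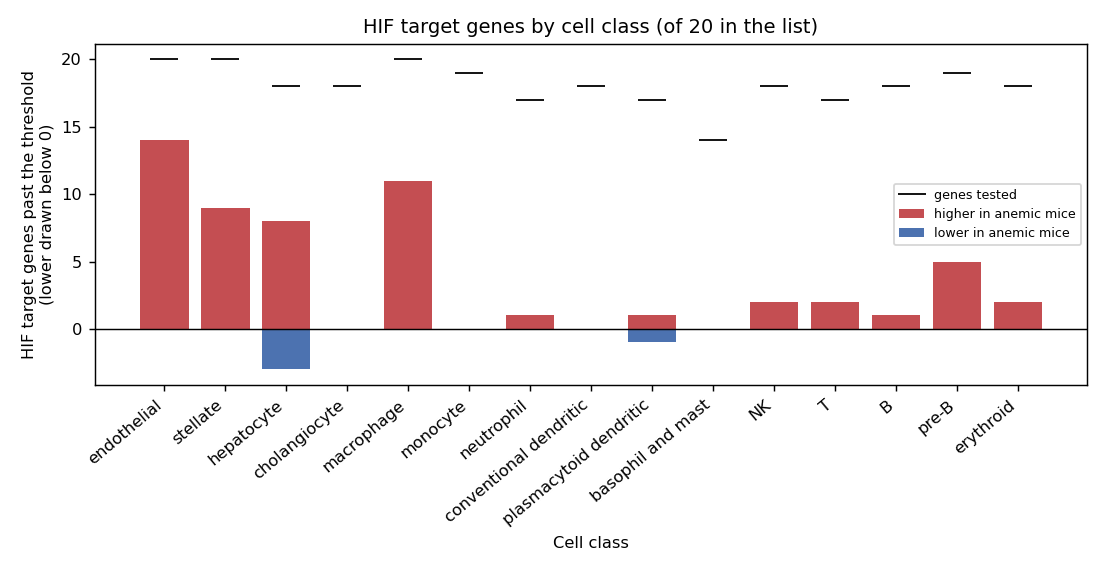
Number of HIF target genes (of 20 listed; black dashes, number tested) past the threshold in each of 15 cell classes, higher in anemic mice upward (red) and lower downward (blue). Endothelial cells had 14, macrophages 11 and stellate cells 9 higher, and hepatocytes 8 higher and 3 lower. The list was chosen with earlier results of these data known.

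A list of 20 known HIF target genes gives the other end of the pathway. Like the members and the list of partners below, it was chosen with earlier results of these data known, so its shares are not an independent test. It was tested in 271 combinations of gene and class, of which 56 were higher and 4 lower in anemic mice, 22.1% against the 7.02% of all tests. Endothelial cells had 14 of 20 higher (7.62% of all genes), macrophages 11 of 20 (2.11%), stellate cells 9 of 20 (8.37%), pre-B cells 5 of 19 (0.725%) and hepatocytes 8 of 18 (20.8%) with 3 lower (25.4%). The median log2 change of the list was 0.537 in endothelial cells, 0.664 in macrophages and 0.339 in stellate cells, against 0.00436, 0.0340 and 0.00153 over all genes tested there. In hepatocytes it was 0.0042 against -0.0794, and in monocytes, where none passed, 0.404 against 0.0237.

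Bnip3, a mitophagy receptor, rose in 9 classes, with log2 changes of 2.00 in hepatocytes, 1.70 in macrophages and 1.00 in endothelial cells. Pgk1, a glycolytic kinase, rose in 7 (1.61 in hepatocytes, 1.47 in macrophages, 1.27 in endothelial cells), and Ero1a, an oxidase of the endoplasmic reticulum listed as Ero1l, in 5 (1.20 in endothelial cells, 1.03 in macrophages). The 4 genes next in number of classes, Higd1a, Ldha, Pdk1 and Vegfa, each passed in 4. Ldha, the subunit of lactate dehydrogenase, rose by 1.09 in hepatocytes and 0.723 in macrophages, and Pdk1, which restrains pyruvate oxidation, by 0.775 and 0.809. Higd1a, a mitochondrial protein, rose by 0.955 in hepatocytes and 0.541 in endothelial cells. Vegfa, the main vessel growth factor, rose by 2.04 in macrophages, 0.532 in endothelial and 0.472 in stellate cells and fell by 0.743 in hepatocytes.

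A second list held 23 partners and regulators of the members. Over 319 tests 8 were higher and 15 lower, 7.21% against 7.02% of all tests. Ing4, a chromatin reader that binds EGLN1, fell by 0.55, 0.457 and 0.408 on the log2 scale in endothelial cells, hepatocytes and stellate cells. Cited2, which competes for the coactivator p300, and Elob, an adaptor of the VHL ligase, both rose in endothelial cells (0.454 and 0.314) and hepatocytes (1.36 and 0.708). The other elongin of that ligase, Eloc, rose by 0.583 in hepatocytes and fell by 0.336 in stellate cells. P4htm, a transmembrane prolyl hydroxylase, fell by 0.867 in endothelial and by 0.379 in stellate cells. Of the 23 calls, 14 lay in hepatocytes, 6 in endothelial and 3 in stellate cells.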

How the data were processed

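Each library was a droplet 3′ library of 1 mouse, and the authors deposited the raw UMI counts per gene and barcode, made with Cell Ranger 7.0.0 per the file headers against a mouse build named mm10 in the submitters' processing notes. The methods name Seurat for filtering and clustering, keeping cells of 500 to 50000 UMIs whose mitochondrial share did not exceed 50%. The same limits were applied here, and 206146 of 207537 barcodes were kept. Cells were clustered on 2000 variable genes and 20 principal components (Leiden, resolution 2, scanpy 1.11.5) into 62 clusters, which were named from marker lists. A cluster was left unnamed where its 10 leading genes held more markers of another class, Schwann, smooth muscle and mesothelial cells included, or where its best score was within 0.2 of the second and its leading genes did not hold more markers of the best class. These conditions were set after the clusters had been seen (8 clusters, 6267 cells). Each cell was scored by its likeness to sums of 2 random cells of its library. The highest scores were called doublets, in a number set beforehand at 0.8% per 1000 cells of the library, and were kept. Shares of doublet calls therefore rank clusters, classes and mice but do not measure a rate.

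UMIs were summed per mouse and class. Classes were tested with at least 20 cells in at least 4 mice per group and genes averaging 5 or more UMIs in a mouse, mitochondrial and ribosomal protein genes left out, by edgeR 4.0.16 with TMM scaling (R 4.3.3). Levels of neighbouring classes were compared by exact sign-flip tests on log2(CPM + 1). Changes between classes were compared by exact permutation of 6 against 6 mice, on TMM-scaled log2 CPM with a prior count of 2. Only members called in at least 1 class entered this comparison and its adjustment, so Vhl and Hif1an did not. Both tests were two-sided. The upper limit given where no UMI of a gene was read (3 counts) covers counting error only. Of 200 genes changed in simulated data, in equal numbers by 1 and by 2 on the log2 scale, 158 were recovered in macrophages, 171 in hepatocytes and 139 in monocytes. There were 10, 8 and 12 false calls. Of the genes changed by 1 alone, 67, 73 and 51 were recovered. Smaller changes and the other classes were not simulated. In hepatocytes the 200 were among 11468 genes, as many raised as lowered, whereas 46.2% of genes were called in the data. Recovery with so many genes changed, or with outlying mice, was not tested. The alternatives were DESeq2 1.42.0, a joint model in limma 3.58.1, no TMM, no filter, a replicate block, a Y-linked covariate, at most 10% mitochondrial UMIs, doublets left out, resolution 1 and each mouse left out. Fits of single clusters, fits without anemic mice 2 and 3 and the Y-linked limit of 50 CPM were added after the data had been seen. All 9 members, the list genes called in the most classes (up to 5, with ties) and the 3 genes most like each member are named, except that 1 gene of like pattern and 1 unnamed cluster are not reported here. The members and lists were chosen with earlier results of these data known.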

Additional observations from a re-analysis of the deposited data

Results flagged for a closer look

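In 2 of 38 groups of 6 mice, 1 mouse stood far from the other 5, and chance gives about 1 in 20 such groups. Hif1a in T cells was 98.2 CPM in control mouse 3 and 172 to 191 CPM in the other control mice. Egln2 in hepatocytes was 24.9 CPM in control mouse 6 and 36.2 to 40.5 CPM in the others, and without that mouse the Egln2 difference in hepatocytes did not pass the threshold.

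The change between the groups (anemic minus control, log2) differed between 2 classes in 15 of 61 pairs among hepatocytes, macrophages, monocytes, endothelial and stellate cells, each with an exact permutation p adjusted over 591 pairs of 0.0297. These are the 5 classes with a called member, and over all 591 pairs 56 differed, 41 of them in pairs with another class. The pairs cover only members already called in at least 1 class of the same data, so these differences are not independent of the calls. For Hif1a the change in endothelial cells minus that in hepatocytes was 1.03, and the hepatocyte change minus that in macrophages, monocytes and stellate cells was -0.903, -1.06 and -0.886. For Arnt the corresponding values were 0.784, -0.852, -0.717 and -0.797. For Epas1 the endothelial change minus the stellate change was 0.613, and for Hif3a the macrophage change minus the stellate change was -1.41.

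For Egln1 the endothelial change minus the macrophage change was -0.302, the hepatocyte change minus the stellate change 0.604 and the macrophage change minus the stellate change 0.522. For Egln3 the endothelial change minus the macrophage change was -0.944 and the macrophage change minus the stellate change 1.14.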

How the results depend on the processing

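The count of members higher in anemic mice was 9, and 7 to 10 with 1 mouse left out. The count lower was 3 in each of those fits and 6 without TMM scaling, which moved the median log2 change of all genes from -0.0794 to -0.262 in hepatocytes and from 0.0142 to -0.28 in erythroid cells. With single mice left out the log2 change of Hif1a was -0.678 to -0.567 in hepatocytes and 0.364 to 0.446 in endothelial cells, of Arnt in hepatocytes -0.693 to -0.541, of Epas1 in stellate cells -0.695 to -0.538 and of Hif3a there 1.42 to 1.65. That of Egln1 was 0.687 to 0.784 in hepatocytes, 0.586 to 0.705 in macrophages and 0.292 to 0.409 in endothelial cells, that of Egln2 in hepatocytes 0.28 to 0.417, and that of Egln3 0.624 to 0.772 in hepatocytes, 1.34 to 1.57 in macrophages and 1.94 to 2.73 in monocytes. Of the 12 calls, those of Egln2 in hepatocytes and Egln3 in monocytes were lost in some of these fits.

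Fitted in single clusters, 5 values changed sign, none past the threshold: Arnt in hepatocyte cluster 8 (0.221), Egln2 in clusters 10 (-0.365) and 25 (-0.117), Hif1a in cluster 25 (0.0121) and Epas1 in stellate cluster 48 (0.0977). The cause was not tested. The level of Hif3a in stellate cells was 3.59 CPM at resolution 1 against 8.51 CPM. The highest class of a member changed for Epas1 (stellate cells at resolution 1), and for Arnt (stellate cells) and Egln3 (basophils and mast cells) with doublets left out.

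Correlations of the deviations of same-numbered mice ran from -0.455 to 0.48, and 40 of 90 were over 0.1. Number 4 was at 0.0253 to 0.48 and number 1 at -0.0345 to 0.385 over the 15 classes. These correlations were not set against those of differently numbered mice, so whether the replicate numbers pair the mice was not tested. With the replicate block 9 members were higher and 3 lower, 8 and 3 of them shared with the fit without it. Egln2 in hepatocytes was lost (0.344, edgeR adjusted p = 0.0807) and Hif1a in monocytes gained (0.444, adjusted p = 0.0404). At 0 to 5 UMIs per mouse, the control level of Egln3 in monocytes rests on few counts.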

Other observations

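Some clusters were left unnamed, and members were read there too. Cluster 61 (556 cells, with Acta2, Myh11 and Tagln among its 10 leading genes, 76.6% called as doublets) held Hif1a at 321 CPM, Epas1 at 270 CPM and Hif3a at 19.9 CPM, from 72 UMIs. Cluster 51 (893 cells, led by Msln and Upk3b, 88.2% called as doublets) held Egln3 at 65.3 CPM and Epas1 at 57.3 CPM. Cluster 20 (2118 cells, led by Mpo and Elane) held Hif1a at 117 CPM and Epas1 at 3.70 CPM. These are sums over all cells of a cluster and were not compared between the groups.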
